A study of Mus musculus with 117 samples.

Results

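The interferon response genes of the mouse were followed across normal organs and tumours on Affymetrix arrays. A list of 32 genes known to be induced by interferon was matched to the probe sets that are annotated to a single gene, and of several for a gene the brightest on average across the 117 arrays was taken. This gave values for 27 of the 32 genes, among 17097 genes in all. Isg15, Oas1a, Ifi44, Tap1 and Bst2 had no such probe set and were not analysed here. The members comprised 4 transcription factors (Irf1, Irf7, Irf9, Stat2), Usp18 of the ISG15 system, 2 sensors of RNA (Ifih1, Dhx58), 3 genes of the IFIT family, 4 of the OAS family, 6 other antiviral effectors, 5 interferon-inducible GTPases and 2 immunoproteasome subunits. All mice were of strain C57BL/6. Cells of 6 normal organs had been dissociated and sorted on magnetic beads carrying an antibody to Prom1, a membrane protein used to mark stem and progenitor cells, into a Prom1-positive and a Prom1-negative sample. There were 3 positive and 5 negative samples of prostate, 3 and 7 of lung, 3 and 5 of intestine, 4 and 7 of liver, 4 and 3 of uterus, and 3 and 4 of stomach. The 66 tumours were 14 bronchial papillary adenomas, 13 hepatocellular carcinomas, 11 gastric adenocarcinomas, 10 prostatic adenocarcinomas, 9 uterine adenocarcinomas, 6 squamous skin carcinomas and 3 lymphomas of B cells. The series as a whole concerns mice with conditional alleles driven from Prom1, but the labels of the single samples give no genotype, so neither the alleles that a tumour carried nor those of the normal mice are stated here. Nor do they say whether replicates are different mice, and p-values therefore speak only to the spread among the arrays at hand.

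Interferons are secreted proteins that warn cells of infection. Type I interferons (Ifna and Ifnb1) act through Ifnar1 and Ifnar2 and bring Stat2 and Irf9 into a factor that binds GAAA-rich promoter elements. Interferon-gamma, made by T and NK cells and encoded by Ifng, acts through Ifngr1 and Ifngr2, and raises Irf1, the GTPases that attack intracellular pathogens and the immunoproteasome that cuts peptides for class I presentation. Many members answer to both signals, and leukocytes such as macrophages express part of the response at rest.

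Sequences are shown for the 5 members that varied most between the 19 groups among those with a motif match near the start, as the 150 bases before it. Each is read 5′ to 3′ along its gene from RefSeq (GRCm38.p6), with the motif matches in capitals.
Gbp2: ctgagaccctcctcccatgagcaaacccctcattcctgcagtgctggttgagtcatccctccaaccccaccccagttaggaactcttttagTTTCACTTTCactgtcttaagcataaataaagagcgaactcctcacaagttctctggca
Gbp3: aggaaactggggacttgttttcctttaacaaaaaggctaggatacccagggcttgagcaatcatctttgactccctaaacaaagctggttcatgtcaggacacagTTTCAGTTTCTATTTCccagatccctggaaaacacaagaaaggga
Psmb8: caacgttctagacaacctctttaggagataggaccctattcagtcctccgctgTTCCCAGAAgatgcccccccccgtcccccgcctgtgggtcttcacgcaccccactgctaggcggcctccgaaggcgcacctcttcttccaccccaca
Rsad2: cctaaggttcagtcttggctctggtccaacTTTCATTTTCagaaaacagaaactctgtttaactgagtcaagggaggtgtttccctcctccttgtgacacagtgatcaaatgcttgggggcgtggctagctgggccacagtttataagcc
Trim30a: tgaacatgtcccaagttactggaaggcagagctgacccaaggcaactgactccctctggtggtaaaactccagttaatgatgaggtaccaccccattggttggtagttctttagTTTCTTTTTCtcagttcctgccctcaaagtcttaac
Gbp2 lies at chr3:142620513-142620662 and Gbp3 at chr3:142559894-142560043, both on the forward strand of the same chromosome, and Psmb8 at chr17:34198045-34198194 on the forward strand. Rsad2 lies at chr12:26456453-26456602 and Trim30a at chr7:104465194-104465343, both on the reverse strand. The capitals in Gbp2, Gbp3, Rsad2 and Trim30a spell GAAA, any 2 bases and GAAA again, the letters of an interferon-stimulated response element, read on the opposite strand. The match begins 59 bases before the start in Gbp2, 120 in Rsad2 and 36 in Trim30a, while Gbp3 has overlapping matches 45 and 39 bases before it. The capitals in Psmb8 are TTCNNNGAA, the letters of a gamma-activated site, 97 bases before the start. Both strands were searched over 250 bases before and 50 after each start, and 25 of the 32 listed genes had a promoter entry. The repeated GAAA motif was present in 14 of the 25 (Stat2, Isg15, Ifih1, Ifit1, Ifit3, Oas1a, Oas3, Rsad2, Bst2, Trim30a, Gbp2, Gbp3, Irgm1 and Igtp), against 3.99% of 27025 genes. TTCNNNGAA was present in 6 of the 25 (Irf1, Ifit2, Oas1a, Bst2, Igtp and Psmb8), against 9.55% of genes. Oas1a, Bst2 and Igtp had both, and only in Bst2 did matches to both motifs share bases. These are matches of letters in one window and are not evidence of binding.

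The values are log2 signals normalised together by the submitters, so that a difference of 1 is a doubling. Levels are compared for one gene between groups and never between genes. Array medians ran between 3.63 and 4.01, and the upper quartile fell under 6 on 6 arrays, namely 1 Prom1-positive lung, 2 Prom1-positive liver, 1 Prom1-negative stomach and 2 Prom1-positive stomach samples. Replicates correlated at 0.69 or higher, the lowest being among Prom1-negative stomach samples. The RNA of Prom1-positive liver cells read more weakly towards its 5′ end. Their log2 ratio of 3′ to 5′ Gapdh control probe sets was 1.14 ± 0.04 (SD, n = 4), against 0.603 ± 0.206 in Prom1-negative liver cells (SD, n = 7). Hepatocyte markers averaged between 12.02 and 13.29 in all liver samples, and epithelial markers averaged 3.40 in the lymphomas. Uterine adenocarcinoma replicate 6 stood at 12.1 for the hepatocyte markers, where the other 8 uterine tumours lay between 2.59 and 5.37. Prom1 itself averaged higher in positive than in negative cells of prostate (10.2 and 8.42), stomach (11.9 and 10.2) and uterus (11.4 and 9.91), as it did by less in intestine (9.20 and 8.66). In lung the positive and negative means were 6.56 and 6.55. In liver it was low in both, at 3.17 (2.56 to 4.14) in positive and 2.94 (2.53 to 3.41) in negative cells, with overlapping ranges.

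The interferon genes differed widely between groups before any sorting or tumour was compared. Averaged over the 27 genes, the level was highest in B-cell lymphomas (7.93 ± 0.41, SD, n = 3) and Prom1-positive uterus (7.85 ± 0.26, SD, n = 4). It was lowest in Prom1-negative stomach (4.66 ± 0.67, SD, n = 4) and Prom1-positive stomach (4.92 ± 0.30, SD, n = 3). The ranges of both top groups overlapped, as did those of both stomach groups. A stomach group had the lowest mean for 20 of the 27 genes, while Prom1-positive uterus had the highest for 10 and the lymphomas for 8. All 27 genes differed between the 6 normal organs (limma F test over both sorts), where 90.1% of the 14081 genes tested did so.

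The roles did not keep step. In the map of genes by group, the mean of the 5 GTPases of intestine stood at -2.21 relative to the mean of the 19 groups in Prom1-positive and -1.88 in Prom1-negative cells. Iigp1 was the lowest of them and Igtp was near its mean over groups, at -0.05 in Prom1-positive and 0.28 in Prom1-negative cells. The immunoproteasome pair of the same samples stood high, at 1.45 in Prom1-positive and 1.82 in Prom1-negative cells. Iigp1, a GTPase that disrupts the vacuoles of intracellular parasites, had the widest range of any member, with a mean of 11.37 in Prom1-positive liver and 3.29 in Prom1-negative intestine. Lymphomas were 2.93 above the mean of groups for the GTPases and 3.06 above it for the immunoproteasome, but 0.33 above it for the OAS family. Oas3, an oligoadenylate synthetase whose product activates RNase L, exceeded the array median on 4 of the 117 arrays, so its values are close to background. Irf1, a factor that interferon-gamma induces, exceeded it on all 117.

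**Figure D1:**
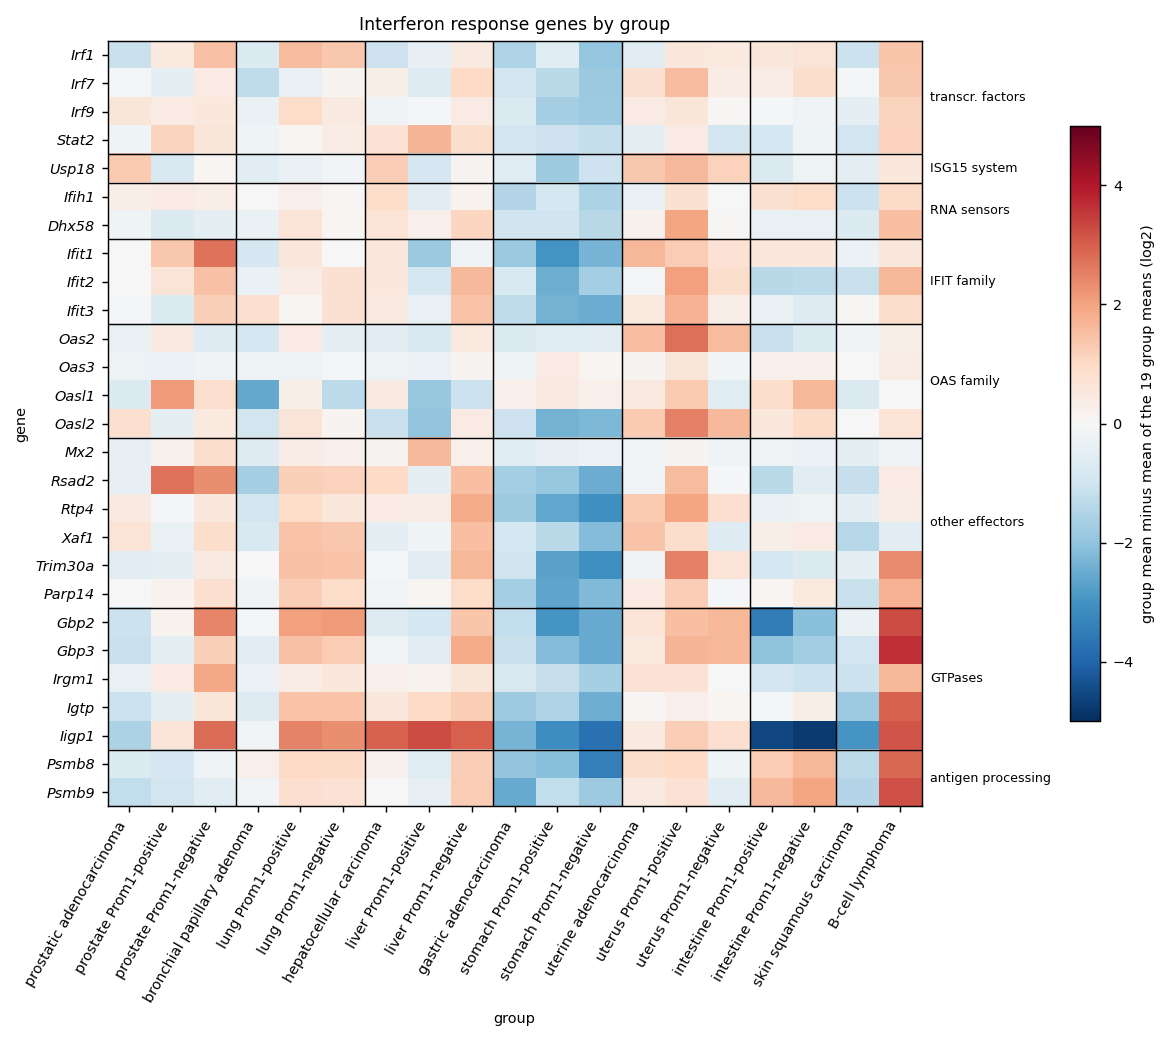
Group mean of each of the 27 interferon response genes minus that gene's mean over the 19 groups (log2 scale, colour from blue below to red above, genes in rows by role, groups in columns). Stomach groups are low for nearly all roles, lymphomas are high for the GTPases and the immunoproteasome, and intestine is low for Gbp2, Gbp3 and Iigp1 but high for Psmb8 and Psmb9.

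Within groups the genes moved together from sample to sample. With group means removed, the median Pearson correlation over the 351 pairs of genes was 0.381 across the 51 sorted samples and 0.566 across the 66 tumours. Pairs of one role had a median of 0.472 in sorted samples and 0.646 in tumours, and pairs of different roles 0.371 and 0.561. Psmb8 and Psmb9, genes for immunoproteasome subunits that lie on either side of Tap1 on chromosome 17, were the closest pair in sorted samples (0.848). Ifit1, which binds viral RNA ends, and Rtp4 were the closest in tumours (0.903). Samples share normalisation and tissue of origin, and these correlations are given as a description. The mean of the 27 genes also followed the mean of 6 pan-leukocyte markers (Ptprc, Cd53, Laptm5, Coro1a, Cd52 and Rac2), with r = 0.336 in the 51 sorted samples and 0.46 in the 66 tumours after the group means were removed. Of the 11 marker means, that of erythroid cells had the highest r in sorted samples (0.581), followed by endothelium (0.448), and T and NK cells had -0.03. In tumours leukocytes had the highest, followed by macrophages and monocytes (0.42), and erythroid cells had -0.115. In these bulk samples, fewer cells of a type and less RNA per cell cannot be told apart.

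The first question was whether Prom1-positive cells differ from the Prom1-negative cells of the same organ. On the mean of the 6 organs 2 members were lower and none was higher, in a comparison where 8.56% of genes were lower and 5.05% higher, 13.6% in all (limma, adjusted p under 0.05 over 14081 genes). The members' share lower, 7.41%, was near that of all genes. At an unadjusted p under 0.05 there were 4 lower and 1 higher, and the share of all genes at that level was not computed. Both called members were guanylate-binding proteins, GTPases that coat pathogens and their vacuoles. Gbp2 differed by -1.10 (SE 0.22, adjusted p = 0.000525) and Gbp3 by -0.62 (SE 0.18, adjusted p = 0.0185). Without 1 Prom1-positive liver sample (replicate 2) 5 members were called, and without 1 Prom1-positive lung sample (replicate 1) 4 were called. Marker genes moved on the same mean, with 7 of 8 T and NK cell, 3 of 6 pan-leukocyte, 2 of 4 B cell, 2 of 4 neutrophil, both plasmacytoid dendritic cell, 3 of 5 endothelial, 6 of 6 fibroblast and 3 of 3 erythroid markers lower, 4 of 8 macrophage and 2 of 5 hepatocyte markers higher, and no epithelial marker called. The organs differed: the difference itself varied between organs for 15 members, where 21.2% of genes did so, with adjusted p = 6.95e-05 for Trim30a, 0.000145 for Psmb9 and 0.000195 for Psmb8.

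**Figure D2:**
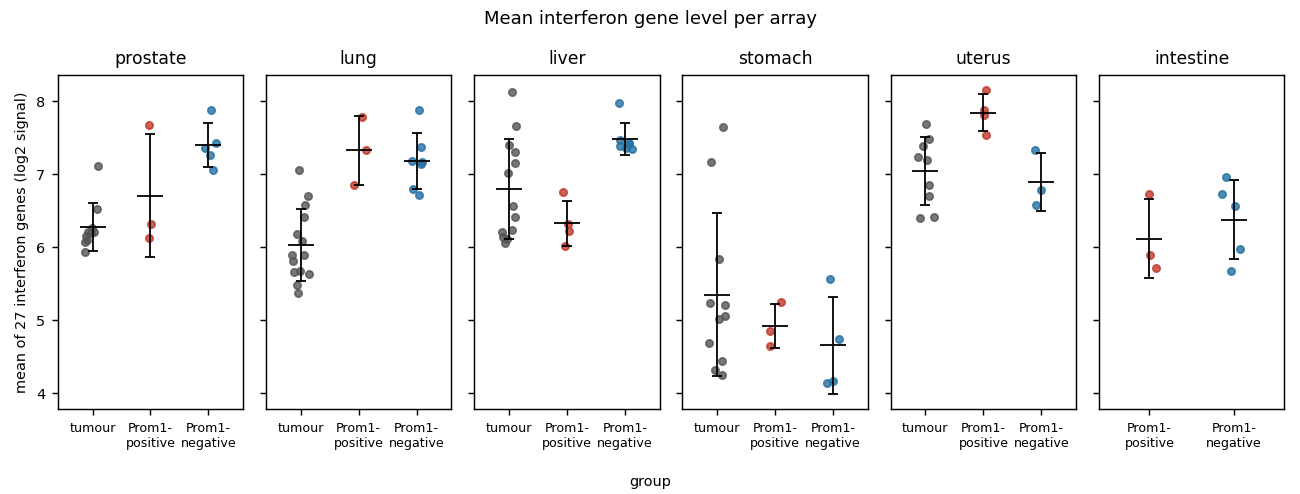
Mean log2 signal of the 27 interferon response genes on each array, by organ, with tumours left, Prom1-positive cells next and Prom1-negative cells right (points are samples, bars mean ± SD). Prom1-positive liver (6.02 to 6.76) lies below Prom1-negative liver (7.35 to 7.98), Prom1-positive uterus (7.54 to 8.16) lies above Prom1-negative uterus (6.58 to 7.34), and both sorted stomach groups are lowest.

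In liver the interferon genes were lower in Prom1-positive cells. Of the 27 members 14 were lower and 1 was higher, where 16.5% of all genes were lower and 4.2% higher, 20.7% together. The 14 were all 3 IFIT genes, both immunoproteasome subunits, 4 other effectors (Rsad2, Rtp4, Xaf1, Trim30a), Oas2 and Oasl2, Gbp2 and Gbp3, and Irf7, the factor that drives type I interferon genes. The median difference of the members was -1.29, against -0.12 over all genes.

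Ifit2, a translation-blocking antiviral protein, read 6.61, 4.66, 3.51 and 4.19 in the 4 Prom1-positive samples, against a lowest of 6.41, a median of 7.05 and a highest of 8.53 in the 7 Prom1-negative samples. Replicate 2 of the positive cells alone reached the negative range, and the difference was -2.52 (SE 0.44, adjusted p = 5e-05). Gbp3 read 7.36, 5.99, 5.91 and 5.76 in positive cells, against 8.24, 8.60 and 9.45 (lowest, median, highest) in negative cells. The groups did not overlap, and the difference was -2.42 (SE 0.39, adjusted p = 1.54e-05). Oasl2, an OAS-like antiviral gene, read 5.74, 2.98, 2.67 and 3.29 in positive cells, against 5.43, 6.08 and 6.50 in negative cells. Replicate 2 again lay among the negative samples, and the difference was -2.37 (SE 0.44, adjusted p = 0.000123). Gbp2 (-2.24, SE 0.48, adjusted p = 0.000604) and Trim30a, a TRIM-family regulator of innate signalling (-2.21, SE 0.39, adjusted p = 4.96e-05), completed the 5 largest falls.

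The exception was Mx2, a gene of the dynamin-like Mx GTPase family. It read 5.65, 6.17, 6.27 and 5.13 in positive cells, against 4.004, 4.31 and 4.89 (lowest, median, highest) in negative cells. Every positive sample exceeded every negative one, in a gene that was above the array median on 80 of the 117 arrays, and the difference was 1.38 (SE 0.29, adjusted p = 0.000422). In all, 11 members had groups that did not overlap, 10 lower in Prom1-positive cells and Mx2 higher. The share of all genes with groups apart was not computed, so this count is not a result about the members.

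White-cell markers fell with them. All 6 pan-leukocyte markers were lower in Prom1-positive liver cells, with a mean level of 7.06 (6.01 to 8.78) against 10.3 (9.62 to 10.8) in Prom1-negative cells. So were 7 of 8 macrophage and monocyte markers, all 8 T and NK cell markers, 2 of 4 B cell markers, 3 of 4 neutrophil markers, both plasmacytoid dendritic cell markers, 4 of 5 endothelial, 3 of 6 fibroblast and 2 of 3 erythroid markers. The erythroid mean was 8.06 (7.16 to 9.18) in Prom1-positive cells, against 11.3 (9.74 to 12.7) in Prom1-negative cells, with no overlap. None of the 5 hepatocyte markers was called. Replicate 2 was the positive sample with the highest leukocyte mean. With the leukocyte mean as a covariate 1 member was called in liver in place of 15. That mean did not overlap between the sorts, and its slope was shared by all organs. This fit therefore cannot separate white cells from sorting. The part of white cells, of erythroid cells and of the weaker 5′ signal in the liver result was not tested.

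In uterus the direction was the opposite. Prom1-positive cells were higher for 5 members and lower for none, where 5.31% of all genes were higher and 5.64% lower, 10.9% together, and 26 of the 27 differences were positive. The 5 were Dhx58 (LGP2, a sensor of viral RNA), Trim30a, Xaf1 (in human cells a partner of the apoptosis inhibitor XIAP), Stat2 and Psmb9. The median member difference was 1.12, against 0.03 over all genes.

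Dhx58 read 7.95, 7.19, 7.45 and 7.96 in Prom1-positive cells, against 5.44, 5.33 and 6.35 in Prom1-negative cells. The groups were well apart, and the difference was 1.93 (SE 0.42, adjusted p = 0.000984). Trim30a read 9.98, 9.26, 10.05 and 9.73 in positive cells, against 7.31, 8.10 and 8.198 in negative cells. These groups were also apart, and the difference was 1.89 (SE 0.47, adjusted p = 0.00491). Xaf1 read 8.87, 7.91, 7.38 and 6.59 in positive cells, against 6.08, 5.63 and 6.85 in negative cells. Its groups overlapped at one sample each, and the difference was 1.501 (SE 0.47, adjusted p = 0.0304). It did not pass without any 1 of 4 of the 7 samples (adjusted p between 0.0734 and 0.203). Stat2, the subunit of the type I factor that carries its activation domain, differed by 1.33 (SE 0.42, adjusted p = 0.0298) and Psmb9 by 1.31 (SE 0.37, adjusted p = 0.0142). Ifih1, Dhx58, Ifit2, Oas2, Oasl1, Rtp4, Trim30a, Parp14, Psmb8 and Psmb9 had groups that did not overlap. How many of all genes did so with these few samples was not computed, so the list describes the members only.

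The uterine calls depended on single samples, and 1 member was called without Prom1-negative replicate 1, 2 without replicate 2 and 9 without replicate 3. All 8 macrophage and monocyte markers were higher in Prom1-positive uterine cells, with a mean of 11.4 (11.1 to 11.7) against 7.91 (7.70 to 8.28) in negative cells. Of the 6 pan-leukocyte markers 2 were higher (mean 10.6, 10.3 to 10.7, against 8.80, 8.63 to 8.93), while 5 of 8 T and NK cell markers and 3 of 6 fibroblast markers were lower. With the leukocyte mean as a covariate 2 members were called, but here too that mean did not overlap between the sorts. The fit therefore cannot separate leukocytes from sorting, and the part of the marked cell types in the uterine result was not tested. Prom1-negative uterine samples also varied in their RNA, with a 3′ to 5′ Gapdh ratio between 0.311 and 1.536.

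**Figure D3:**
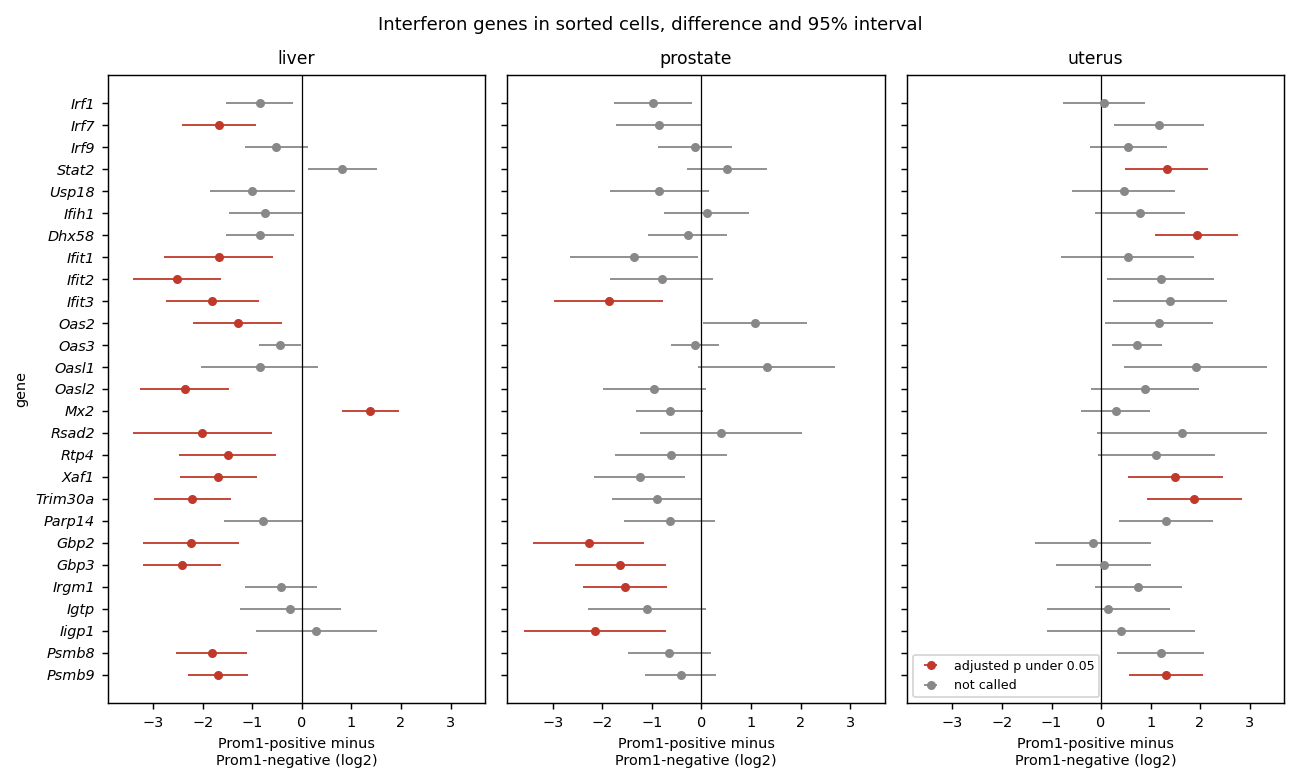
Prom1-positive minus Prom1-negative difference (log2, with 95% interval) of each of the 27 genes in liver, prostate and uterus, by role; red marks an adjusted p under 0.05. In liver most differences lie left of 0 with Mx2 to the right, in prostate 4 of the 5 GTPases are red to the left, and in uterus 26 of 27 lie right.

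In prostate 4 of the 5 GTPases were lower in Prom1-positive cells. Of the 27 members 5 were lower and none was higher, where 5.98% of all genes were lower and 3.21% higher, 9.19% together. The 4 GTPases were Gbp2, Gbp3, Irgm1 and Iigp1, and the other call was Ifit3. The median member difference was -0.80, against 0.10 over all genes. Gbp2 read 7.65, 6.59 and 7.83 in Prom1-positive cells, against 9.51, 9.67, 9.53, 9.73 and 9.73 in Prom1-negative cells. The negative samples were nearly identical and all above the positive ones, and the difference was -2.28 (SE 0.56, adjusted p = 0.00449). Iigp1 read 8.68, 7.78 and 9.78 in positive cells, against 11.003, 10.80, 10.81, 10.72 and 11.15 in negative cells. The groups were apart, and the difference was -2.15 (SE 0.71, adjusted p = 0.0456). It did not pass without any 1 of 7 of the 8 samples (adjusted p between 0.0601 and 0.337), the exception being positive replicate 3. Ifit3, which in human cells stabilises Ifit1 on RNA, read 4.57, 5.03 and 6.93 in positive cells, against 8.41, 6.602, 7.05, 7.09 and 7.79 in negative cells. One positive sample lay within the negative range, and the difference was -1.87 (SE 0.54, adjusted p = 0.0201). Gbp3 differed by -1.64 (SE 0.46, adjusted p = 0.015) and Irgm1, a GTPase that restrains the other immunity-related GTPases, by -1.54 (SE 0.42, adjusted p = 0.012). The remaining GTPase, Igtp, did not pass (7.16 in positive and 8.26 in negative cells, difference -1.10, SE 0.59, adjusted p = 0.296).

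One positive prostate sample, replicate 3, was the highest of its group for 25 of the 27 members. No member was called without positive replicate 2, and 3 were called without positive replicate 1 or without negative replicate 5. With consecutive sample codes as a block, 3 of the members were called. In Prom1-positive prostate cells 6 of 8 T and NK cell markers, 2 of 4 B cell, 2 of 4 neutrophil, 4 of 5 endothelial and 4 of 6 fibroblast markers were lower, 2 of 8 macrophage markers were higher, and none of the 6 pan-leukocyte markers was called (mean 8.83, 8.11 to 9.76, against 9.27, 8.34 to 9.72). All 3 erythroid markers were lower, with a mean of 6.14 (5.52 to 6.59) in positive cells, against 12.1 (11.7 to 12.4) in negative cells. The log2 ratio of 3′ to 5′ Gapdh was 0.997 (0.935 to 1.03) in positive and 0.644 (0.514 to 0.816) in negative cells, with no overlap. The part of these in the result was not tested.

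Lung, intestine and stomach gave no call among the 27 members, where limma called 1.51% of all genes in lung (0.391% higher, 1.11% lower), 0.199% in intestine (all lower) and 3.17% in stomach (2.29% higher, 0.888% lower). At an unadjusted p under 0.05 there was 1 member in lung, 1 in intestine and 2 in stomach. The share of all genes at that level was not computed, so these counts are not a result about the members. The median member difference was 0.12 in lung, -0.16 in intestine and 0.35 in stomach, against -0.01, 0.00 and 0.13 over all genes. In lung the smallest unadjusted p was that of Oasl1, a translational brake on Irf7, which read 5.99, 7.41 and 6.64 in Prom1-positive cells and between 4.16 and 5.93 in the 7 negative samples (difference 1.58, 95% interval 0.27 to 2.88, adjusted p = 0.333). Its groups did not overlap. Oas2, with the next smallest p in lung, differed by 0.83 (-0.16 to 1.82), and by -0.07 without positive replicate 2. In intestine Gbp2 read 3.76, 3.90 and 3.45 in positive cells, against 4.03, 4.19, 5.93, 6.43 and 4.92 in negative cells. The groups were apart but the difference did not pass (-1.40, 95% interval -2.52 to -0.28, adjusted p = 0.836). In stomach Irf1 read 8.04, 8.04 and 8.53 in positive cells, against 6.40, 7.41, 6.80 and 6.95 in negative cells. All positive samples were higher, with a difference of 1.31 (95% interval 0.49 to 2.14, adjusted p = 0.0668). Without Prom1-negative stomach replicate 3, a sample in which Psmb8 stood at 7.36, 3 members were called. A p that misses the threshold does not show that the sorts of these organs were alike.

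Tumours were next set against the mean of both sorted groups of their organ. Tumours had been frozen whole while normal cells had been dissociated and sorted, so that tumour state and handling cannot be told apart, and the comparisons share the sorted samples used above. On the mean of 5 organs 13 members were lower and 1 was higher in tumours, where 26.8% of 14663 genes were lower and 39% higher, 65.8% together. The median member difference was -0.35, against 0.08 over all genes. Irf1 had the largest of these falls (-1.31, SE 0.12, adjusted p = 1.74e-16), followed by Rsad2 (viperin, an antiviral enzyme) at -1.12 (SE 0.28), Iigp1 at -1.11 (SE 0.26), Gbp2 at -0.96 (SE 0.18) and Gbp3 at -0.81 (SE 0.17). Usp18, which removes ISG15 from proteins and damps type I receptor signalling, was the one member higher in tumours (0.74, SE 0.25, adjusted p = 0.00708). The difference varied between organs for 23 members, where 77.9% of genes did so, with adjusted p = 2.25e-08 for Trim30a, 5e-08 for Gbp2 and 1.51e-06 for Gbp3. The members' share, 85.2%, was near that of all genes.

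Prostatic adenocarcinomas were lower for 12 members and higher for 1, where 15.8% of genes were lower and 20.9% higher, 36.7% together. All 5 GTPases were among the 12. Iigp1 had a lowest, median and highest value of 5.33, 6.45 and 8.71 in tumours, against 7.78, 10.76 and 11.15 in sorted prostate cells, with a difference of -3.33 (SE 0.60, adjusted p = 3.3e-06). The tumour and sorted ranges overlapped at their ends. Rsad2 had 5.94, 6.49 and 7.65 in tumours, against 8.67, 9.32 and 11.37 in sorted cells, with a difference of -2.90 (SE 0.64, adjusted p = 0.000148). No tumour reached a sorted sample, and the same held for Stat2 and Mx2. The share of all genes apart in this way was not computed, so this describes the members only. Gbp2 had 5.21, 6.18 and 7.96 in tumours, against 6.59, 9.52 and 9.73 in sorted cells (difference -2.37, SE 0.43, adjusted p = 3.3e-06). Usp18 had 6.14, 7.19 and 7.59 in tumours, against 4.55, 5.65 and 6.30 in sorted cells, and the lowest tumour lay just inside the sorted range (1.67, SE 0.58, adjusted p = 0.0175). Of the 6 pan-leukocyte markers 4 were lower in these tumours, as were all 4 B cell and 5 of 8 T and NK cell markers. The pan-leukocyte mean was 7.87 (6.41 to 8.61) in tumours, against 8.83 in Prom1-positive and 9.27 in Prom1-negative prostate. Their part in the result was not tested.

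Bronchial papillary adenomas were lower than sorted lung for 19 members and higher for none, where 19.7% of genes were lower and 23.4% higher, 43.1% together. Over the members the median difference was -1.11, against -0.003 over all genes. All 6 other effectors, all 5 GTPases and both immunoproteasome subunits were among them. Irf1 had a lowest, median and highest value of 7.82, 8.17 and 8.42 in tumours, against 9.17, 10.15 and 11.19 in sorted lung, with no overlap (-2.16, SE 0.26, adjusted p = 1.11e-11). Rsad2 had 3.14, 5.13 and 9.35 in tumours, against 6.48, 8.36 and 9.496 in sorted lung, with ranges that overlapped (-2.80, SE 0.58, adjusted p = 3.08e-05). Iigp1 had 5.62, 7.72 and 10.57 in tumours, against 6.96, 10.71 and 12.23 in sorted lung (-2.53, SE 0.54, adjusted p = 5.23e-05). All 6 pan-leukocyte markers were lower in the tumours too, with a mean of 9.36 (8.63 to 10.4) against 10.2 in Prom1-positive and 10.8 in Prom1-negative lung. So were all 8 T and NK cell, all 4 B cell and all 5 endothelial markers, and 12 members were called with the leukocyte mean as a covariate. The part of these cells in the lung result was not tested.

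Hepatocellular carcinomas had 4 members higher and 5 lower than sorted liver (14.8% and 18.5%), where 29.2% of genes were higher and 18% lower, 47.2% together. These shares were at or below those of all genes, so the counts are not a result about the members. By median the members differed by -0.34 and all genes by 0.07. Oasl1 had a lowest, median and highest value of 4.35, 6.62 and 10.55 in tumours, against 3.85, 5.15 and 5.90 in sorted liver (1.93, SE 0.51, adjusted p = 0.00101). Ifit1 had 4.13, 7.03 and 9.66 in tumours, against 4.11, 5.81 and 7.37 in sorted liver (1.599, SE 0.56, adjusted p = 0.014). Usp18 had 4.46, 7.31 and 8.44 in tumours, against 4.44, 5.68 and 6.22 in sorted liver (1.58, SE 0.50, adjusted p = 0.00637). In all of these the tumours spread from the sorted level upwards. Ifih1 (MDA5, the sensor of long double-stranded RNA) was the other member that was higher (1.09). Irf1 had 6.92, 7.79 and 8.52 in tumours, against 7.96, 9.03 and 10.41 in sorted liver (-1.06, SE 0.25, adjusted p = 0.000231). Xaf1 (-1.09) and Gbp2 (-0.89) were lower as well, but with all probe sets of the gene averaged Xaf1 was 0.77 higher, and against Prom1-positive cells alone Gbp2 was 0.23 higher. No member had tumours and sorted samples wholly apart, and how many of all genes did was not computed. Of the macrophage markers 6 of 8 were lower in the tumours, as were 8 of 8 T and NK cell and 5 of 5 endothelial markers, and none of the 5 hepatocyte markers was called. The macrophage mean was 8.50 (7.04 to 10.3) in tumours, against 8.63 in Prom1-positive and 10.97 in Prom1-negative liver, and its part was not tested.

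Gastric adenocarcinomas were higher than sorted stomach for 7 members and lower for 2, where 35% of genes were higher and 23% lower, 58.1% together. The members' shares, 25.9% and 7.41%, were below these. The members had a median difference of 0.73, against 0.11 over all genes. Trim30a had a lowest, median and highest value of 3.97, 6.03 and 8.71 in tumours, against 3.31, 4.59 and 4.90 in sorted stomach (1.86, SE 0.38, adjusted p = 1.54e-05). Gbp2 had 4.26, 6.16 and 7.85 in tumours, against 3.23, 4.35 and 6.24 in sorted stomach (1.49, SE 0.43, adjusted p = 0.00189). Ifit2 had 2.89, 4.94 and 7.0 in tumours, against 3.07, 3.28 and 4.35 in sorted stomach (1.31, SE 0.44, adjusted p = 0.0083). The tumours ranged from the low sorted level upwards for all of these genes. Psmb9 went the other way, with 4.01, 5.54 and 6.75 in tumours, against 5.54, 6.19 and 7.34 in sorted stomach (-0.999, SE 0.32, adjusted p = 0.00456), while the other subunit gene, Psmb8, was higher (0.78). All 6 pan-leukocyte markers and all 8 macrophage markers were higher in these tumours. The leukocyte mean was 8.07 (6.42 to 9.18) in tumours, against 5.19 (4.65 to 6.05) in Prom1-positive and 5.59 (3.99 to 7.38) in Prom1-negative stomach. With it as a covariate no member was higher and 5 were lower, with Gbp2 at -0.07 and Gbp3 at -0.02. No Prom1-positive stomach sample reached the lowest tumour in that mean, and the part of white cells in the gastric result was not tested. The stomach arrays with low upper quartiles enter this comparison, and without them 2 members were higher and 2 lower.

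Uterine adenocarcinomas were lower than sorted uterus for 5 members and higher for none, where 12.4% of genes were lower and 16.4% higher, 28.8% together. The members' share lower, 18.5%, was not far above that of all genes, and their share called in all was below it. The count is therefore not a result about the members. Trim30a had a lowest, median and highest value of 6.37, 7.12 and 7.53 in tumours, against 7.31, 9.26 and 10.05 in sorted uterus (-1.75, SE 0.40, adjusted p = 0.000275). Ifit2 had 4.88, 5.60 and 6.27 in tumours, against 6.19, 7.29 and 8.03 in sorted uterus (-1.54, SE 0.46, adjusted p = 0.00661). Gbp3 had 6.23, 7.60 and 8.48 in tumours, against 8.36, 8.46 and 8.71 in sorted uterus (-1.18, SE 0.40, adjusted p = 0.0184). The ranges overlapped by a narrow margin for Trim30a and Ifit2, while for Gbp3 the highest tumour exceeded the sorted median. Irf1 (-1.02) was the member whose tumours all lay below the sorted samples, and Dhx58 (-0.81) completed the 5. How many of all genes were apart like Irf1 was not computed. Against Prom1-negative cells alone 1 member was called, higher in tumours, none was lower, and Dhx58 differed by 0.16. Of the pan-leukocyte markers 3 of 6 were lower, as were 3 of 8 macrophage markers. The pan-leukocyte mean was 8.64 (7.36 to 9.85) in tumours, against 10.6 in Prom1-positive and 8.80 in Prom1-negative uterus, and its part was not tested. The counts were unchanged without the tumour with hepatocyte markers.

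Among the tumours alone all 26 members tested differed between the 7 types, where 95.1% of the 13456 genes did so. Oas3 did not pass the filter on dim genes. Each type was set against the mean of the other 6, so that these comparisons share samples, and the lymphomas raise the mean the others are compared with. The lymphomas stood highest, with 16 members higher and none lower, where 24.3% of genes were higher and 22.3% lower, 46.6% together. Over the members the median difference was 1.54, against -0.06 over all genes. The 16 included all 5 GTPases, both immunoproteasome subunits, all 4 transcription factors and both RNA sensors.

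Gbp3 read 10.47, 10.51 and 10.46 in the 3 lymphomas, against a mean of 6.28 in the other types (difference 4.20, SE 0.52, adjusted p = 5.97e-10). Psmb9 read 11.10, 11.22 and 11.30, against 7.15 (4.06, SE 0.43, adjusted p = 5.11e-12). Igtp, an immunity-related GTPase also called Irgm3, read 10.17, 10.46 and 11.16, against 6.86 (3.73, SE 0.52). For each gene the lymphomas were all above the highest tumour of every other type. Iigp1 (3.73, SE 0.81) and Gbp2 (3.69, SE 0.56) had the next largest differences. All 6 pan-leukocyte markers were higher in lymphomas (mean 11.8), as were 3 of 3 B cell, 7 of 8 T and NK cell and 5 of 8 macrophage markers, and 5 of 5 epithelial markers were lower. With the leukocyte mean as a covariate 6 members were called, 5 higher and 1 lower. That mean lay between 11.72 and 11.82 in the lymphomas, while the highest bronchial adenoma had 10.35. Lymphomas are also tumours of B cells, so this fit cannot separate white cells from tumour type. The part of white cells in the lymphoma result was not tested.

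Gastric adenocarcinomas stood lowest, with 23 members lower and none higher, where 24.1% of genes were lower and 23.8% higher, 47.9% together. By median the members differed by -1.21 and all genes by -0.04. Psmb9 had a lowest, median and highest value of 4.01, 5.54 and 6.75 in gastric tumours, with a difference of -2.66 (SE 0.25, adjusted p = 2.54e-13) from the other types. Iigp1 had 3.63, 5.06 and 9.11 (-2.62, SE 0.46) and Psmb8 had 4.65, 6.95 and 8.21 (-2.35, SE 0.26). Ifit1 (-2.14) and Rtp4 (-1.98) were the next lowest. Squamous carcinomas of the skin were lower for 13 members and higher for none, where 22.5% of genes were lower and 19.2% higher, 41.7% together. Iigp1 had 3.27, 4.83 and 8.32 in skin carcinomas (-3.36, SE 0.59, adjusted p = 4.76e-06), Igtp differed by -1.82 and Psmb8 by -1.57. Bronchial papillary adenomas were lower for 10 members and higher for none, where 34.1% of genes were lower and 23.9% higher, 58.1% together. The members' share lower, 38.5%, was near that of all genes, so the count is not a result about the members. Oasl1 had 3.22, 3.75 and 4.69 in them, a narrow and low range (-2.50, SE 0.42, adjusted p = 7.88e-07). Irf7 (-1.47), Rsad2 (-1.31), Usp18 (-1.07) and Oasl2 (-1.03) were lower too.

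Uterine adenocarcinomas were higher for 8 members and lower for none, where 17.3% of genes were higher and 12.5% lower, 29.8% together. Xaf1 had a lowest, median and highest value of 7.04, 8.21 and 9.56 in them (2.01, SE 0.46, adjusted p = 0.000566), but with its probe sets averaged the difference was -0.39. Ifit1 had 6.72, 8.37 and 9.48 (1.99, SE 0.57, adjusted p = 0.00573) and Oas2 had 3.67, 6.37 and 8.03 (1.91, SE 0.38, adjusted p = 8e-05). Rtp4 (1.62) and Oasl2 (1.58) were also higher. Hepatocellular carcinomas were higher for 8 members and lower for 2, where 25% of genes were higher and 41.3% lower, 66.3% together. The members' shares, 30.8% and 7.69%, were near the first of these and below the second. Iigp1 had 8.19, 11.37 and 12.19 in them (3.51, SE 0.43, adjusted p = 2.17e-10), and Rsad2 had 5.97, 7.94 and 11.44 (1.77, SE 0.46). Both RNA sensors were among the 8, with Ifih1 at 1.17, while Oasl2 (-1.26) and Gbp2 (-0.84) were lower. Prostatic adenocarcinomas had 3 members higher and 7 lower (11.5% and 26.9%), where 22.1% of genes were higher and 19.6% lower, 41.8% together. Xaf1 (1.14, and -0.67 with its probe sets averaged), Oasl2 (0.98) and Irf9 (0.64), the DNA-binding subunit of the type I factor, were higher. Iigp1 (-1.78), Gbp2 (-1.34), Gbp3 (-1.34), Psmb9 (-1.17) and Igtp (-0.95) were lower.

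White-cell markers differed between the types as well. The pan-leukocyte mean was 8.07 in gastric adenocarcinomas and 7.74 in skin carcinomas, with 5 of 6 of these markers lower in each. All 8 T and NK cell markers were lower in gastric and 6 of 8 in skin tumours, and all 8 macrophage markers were lower in skin tumours. In hepatocellular carcinomas (7.92) 5 of 6 pan-leukocyte markers were lower while all 5 hepatocyte markers were higher, and in prostatic adenocarcinomas (7.87) 5 were lower and 1 higher. In bronchial adenomas (9.36) 3 of the 6 were higher, and in uterine adenocarcinomas (8.64) none was called. With the leukocyte mean as a covariate 17 members were higher in hepatocellular carcinomas, 17 were lower in bronchial adenomas and 7 were lower in skin carcinomas. The part of white cells in the differences between types was not tested.

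**Figure D4:**
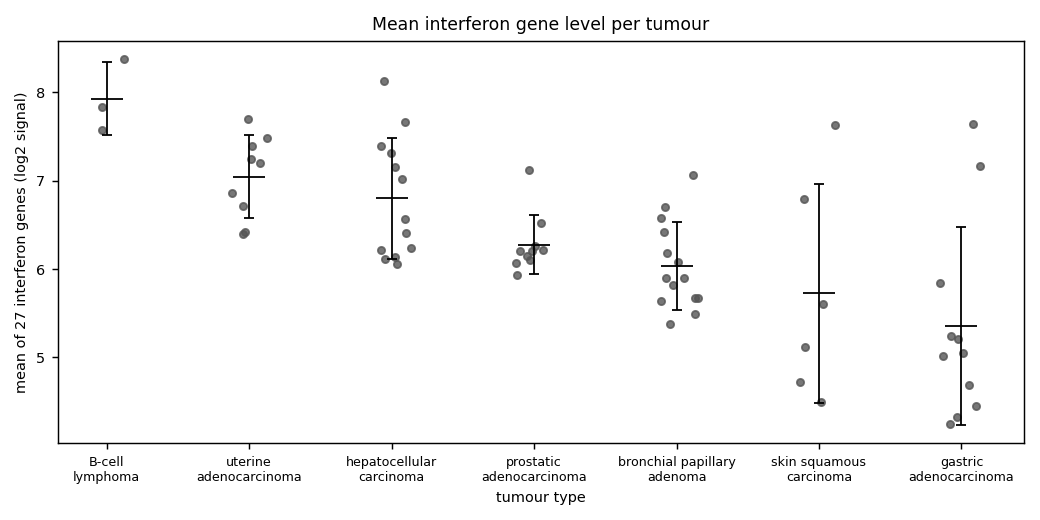
Mean log2 signal of the 27 interferon response genes in each of the 66 tumours, by type (points are tumours, bars mean ± SD). Lymphomas lie between 7.57 and 8.38, gastric adenocarcinomas between 4.25 and 7.64, and the highest hepatocellular, uterine, gastric and skin tumours reach the range of the lymphomas.

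Within types a few tumours carried most of the highest values. Gastric adenocarcinoma replicate 1 was the highest of its 11 tumours for 22 of the 27 members, with a mean of 7.64 in a group that averaged 5.35 ± 1.12 (SD, n = 11). Skin carcinoma replicate 3 was highest for 18 members, hepatocellular carcinoma replicate 11 for 16 and prostatic adenocarcinoma replicate 3 for 15. The skin group shows the spread for one gene, Ifit1, at a lowest of 3.41, a median of 5.01 and a highest of 11.35. Without the leading gastric tumour 25 members were lower in that type, and without the leading skin tumour 15 were lower in skin. Without the leading prostatic tumour 2 were higher and 7 lower in prostatic adenocarcinomas.

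The ligands and the rest of the pathway were read from a list of 70 genes, 64 of them measured. Ifng was low in Prom1-positive cells, and the positive samples of prostate were at 2.86, 2.62 and 2.61, against 3.74, 5.69, 4.42, 6.00 and 5.84 in negative samples. It differed by -2.44 in prostate (SE 0.57, adjusted p = 0.00269), by -2.29 in lung (SE 0.54, adjusted p = 0.0135) and by -1.41 on the mean of the 6 organs (SE 0.23, adjusted p = 1.73e-05). T and NK cell markers, the cells that make it, were lower for 7 of 8 on the same mean. The part of these cells in the difference was not tested. In Prom1-positive uterus, where the interferon genes were higher, Ifng read 2.73, 2.87, 2.42 and 2.62, against 4.03, 4.13 and 4.10 in Prom1-negative uterus. The groups were apart, but array medians ran between 3.63 and 4.01, so both groups lay near background. In the lymphomas Ifng read 7.06, 8.10 and 7.89, against a mean of 2.68 in the other types (difference 5.004, SE 0.16, adjusted p = 2.13e-36). No tumour of another type exceeded 3.81. Ifnb1, the type I ligand, read 7.66, 7.35 and 9.91 in Prom1-positive prostate, against 4.30, 5.93, 5.85, 5.64 and 7.68 in Prom1-negative prostate. One negative sample lay within the positive range, and the difference was 2.42 (SE 0.47, adjusted p = 0.000273), while 4 of the 5 GTPases of the same cells were lower.

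**Figure D5:**
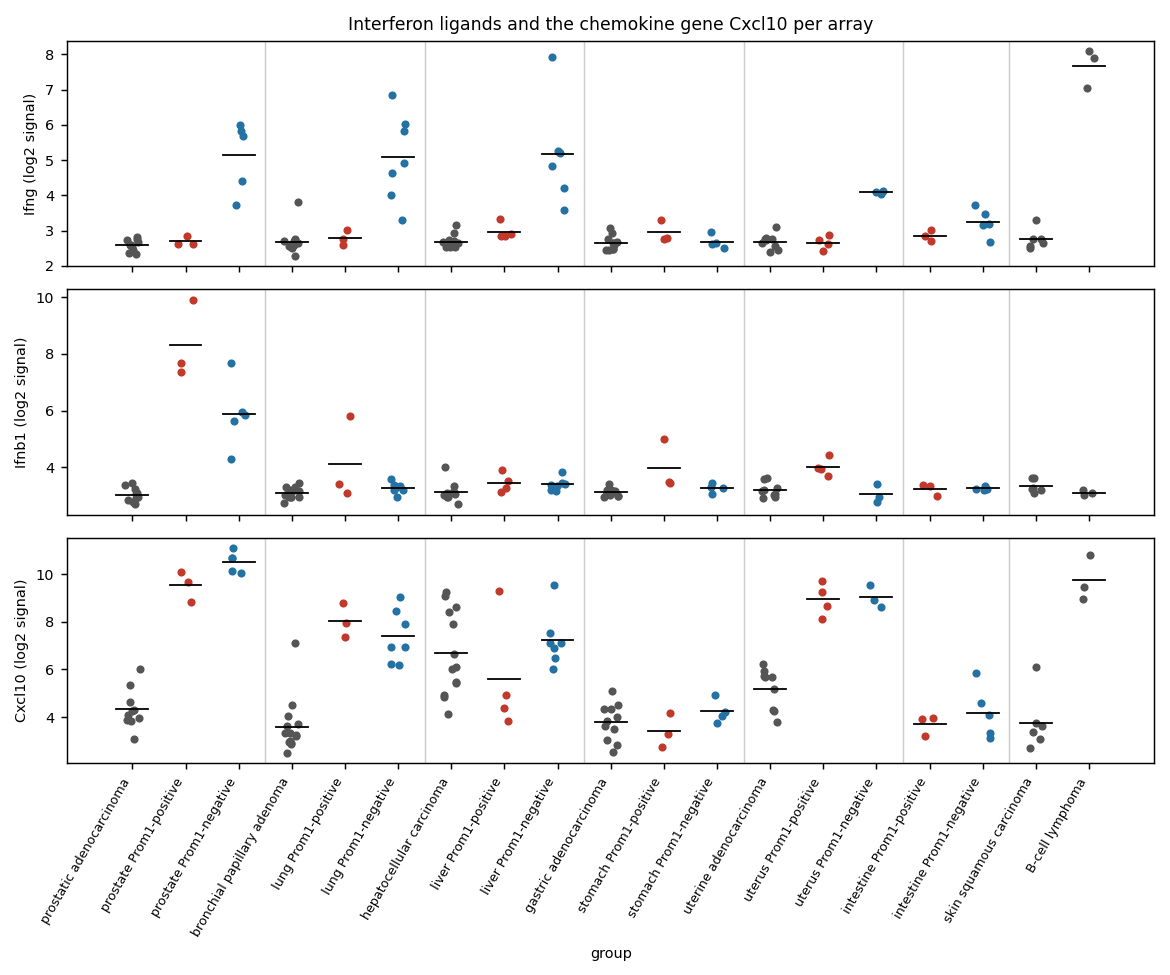
Log2 signal of Ifng (interferon-gamma), Ifnb1 (interferon-beta) and Cxcl10 (a chemokine that both interferons induce) on each array, by group (points are samples). Ifng is highest in the lymphomas (7.06 to 8.10), Ifnb1 is highest in sorted prostate cells, and Cxcl10 is lower in prostate, lung and uterine tumours than in the sorted cells of those organs.

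Of the 62 pathway genes tested in sorted cells, 33 (53.2%) were lower and none higher in Prom1-positive liver, where 16.5% of all genes were lower, led by Irf8 (-2.71), a factor of myeloid cells, Tlr7 (-2.55), a sensor of single-stranded RNA, and the nuclear body protein Sp100 (-2.45). In Prom1-positive uterus 12 (19.4%) were higher and none lower, where 5.31% of all genes were higher, led by Tlr7 (4.15, SE 0.71), Irf4 (2.35), a factor of lymphoid and myeloid cells, and the helicase Ddx60 (1.95). Stomach had 3 higher (Ifitm3, which restricts viral entry, at 3.90, Ly6e at 2.10 and the class I heavy chain H2-K1 at 1.75) and none lower. Those 3 were 4.84%, where 2.29% of all genes were higher. Prostate had 2 higher and 4 lower (3.23% and 6.45%), near the 3.21% and 5.98% of all genes. Lung had 0 and 2 (3.23% lower, against 1.11%), and intestine 0 and 0. The mean of organs had 2 and 4 (3.23% and 6.45%), below the 5.05% and 8.56% of all genes. The counts of prostate and of the mean are therefore not a result about the pathway. On the mean of 5 organs 13 (21%) were higher and 22 (35.5%) lower in tumours than in sorted cells, where 39% of all genes were higher and 26.8% lower. Cxcl10 fell by 2.67 (SE 0.23, adjusted p = 3.48e-18) and Socs3, an inhibitor of JAK and STAT signalling, fell by 2.34, while the interferon-gamma receptor chain Ifngr2 (1.48) and the interferon-lambda receptor chain Ifnlr1 (1.28) were higher. Cxcl10 differed by -5.68 in prostate, -4.11 in lung and -3.78 in uterus. In single organs 11 were higher and 18 lower in prostate tumours, 3 and 33 in lung, 28 and 4 in gastric tumours, 8 and 12 in hepatocellular and 5 and 12 in uterine ones. Shares over all genes were those given above for each organ. In hepatocellular carcinomas the pathway's shares (12.9% and 19.4%) were below or near them (29.2% and 18%). Of 60 tested between types 42 (70%) were higher and none lower in lymphomas, where 24.3% of all genes were higher, led by Cxcl9 (7.28, SE 1.02), a chemokine induced by interferon-gamma, and Cxcl10 (5.18). Gastric adenocarcinomas had 7 higher and 35 lower (11.7% and 58.3%, against 23.8% and 24.1% of all genes). Skin carcinomas had 3 and 31 (5% and 51.7%, against 19.2% and 22.5%). Prostatic adenocarcinomas had 10 and 25 (16.7% and 41.7%, against 22.1% and 19.6%). Uterine adenocarcinomas had 12 and 3 (20% and 5%), near the 17.3% of all genes higher and below the 12.5% lower. Bronchial adenomas had 10 and 19, and hepatocellular carcinomas 12 and 18. In hepatocellular carcinomas both shares (20% and 30%) were below those of all genes (25% and 41.3%), and in bronchial adenomas (16.7% and 31.7%) they were below theirs (23.9% and 34.1%).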

How the data were processed

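The deposited values are log2 signals of 45141 Affymetrix probe sets on 117 arrays, made by the authors with robust multi-array averaging (RMA) in Partek 6.6, per the submitters' processing notes. Array medians and upper quartiles differed in the deposited values, so array-wide shifts remain in them. Of the probe sets, 28898 carry 1 gene symbol in the platform annotation, 551 several and 15692 none. Each gene was read from its single-symbol probe set, the brightest on average where there were several. Arrays limit precision by their number, and no count of molecules exists.

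Group means were fitted with limma 3.58.1 (lmFit and eBayes, two-sided, R 4.3.3), in 51 sorted samples, in all 117 samples or in 66 tumours, over genes above the array median in at least 3 arrays, with Benjamini-Hochberg adjustment over all genes tested and a threshold of 0.05. F tests were used across organs and types and for the interactions. The fits were tested on simulated data. The members and the lists (70 pathway genes and 60 markers of leukocytes, other white cells, endothelium, fibroblasts, epithelium, hepatocytes and erythroid cells) were chosen with earlier results of these data known. Full statistics went to at most 5 called members with the largest rise and 5 with the largest fall in a comparison, values by sample to the first 3, and, where none was called, to the 2 with the smallest p. Pathway genes were named by size, at most 3 a direction, and Ifng, Ifnb1 and Cxcl10 were singled out after their values were seen. Sample numbers are those in the descriptions. Of 17 same-numbered pairs of a positive and a negative sample of one organ, 6 had deviations from their group means that correlated above 0.1 (median -0.035), so the numbers were not taken to pair the samples. Of 13 pairs with consecutive codes 10 did (median 0.324), a hint from the data, since no label says that codes mark a shared animal. Alternatives were averaged probe sets, no filter on dim genes, repeated quantile normalization, the upper quartile or the leukocyte mean as a covariate, robust eBayes with a trend, arrays with an upper quartile under 6 left out, other sample sets and normal levels, blocks, and each sorted sample and lymphoma left out. Leaving out uterine tumour replicate 6, gastric replicate 1, skin replicate 3 and prostatic replicate 3 was added after seeing the data. Promoters came from RefSeq (GRCm38.p6), and Oas2, Mx2, Usp18, Dhx58, Iigp1, Rtp4 and Parp14 are without one here.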

Additional observations from a re-analysis of the deposited data

Results flagged for a closer look

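Each of the 27 genes and their mean was tested by Dixon's criterion in every group of 4 to 10 samples, which made 280 tests. In 28 of them 1 sample stood apart from the rest. Chance alone does so in about 1 in 20 independent tests, but these share arrays and are not independent. Prostatic adenocarcinoma replicate 3 was the high one in 8 of the 28. Its mean over the 27 genes was 7.12, and it stood at 9.15 for Irf1, 8.12 for Oasl1, 7.96 for Gbp2, 8.03 for Irgm1, 8.98 for Igtp, 8.71 for Iigp1 and 8.53 for Psmb9. Prom1-negative liver replicate 2 was high for the mean of the 27 genes (7.98), Irf1 (10.41) and Gbp2 (10.32). Prom1-positive liver replicate 2 was high for Irf1 (9.64), Parp14 (8.75), Gbp2 (8.04) and Gbp3 (7.36), and low for Iigp1 (10.56).

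Prom1-positive liver replicate 3 was low for Ifit1 (4.11). Prom1-negative lung replicate 1 was high for Parp14 (9.62) and Irgm1 (9.70), and replicate 7 was low for Xaf1 (7.67) and Iigp1 (6.96). Prom1-negative stomach replicate 3 was high for Gbp3 (5.57) and Psmb8 (7.36). Prom1-positive uterus replicate 1 was low for Stat2 (5.20) and high for Irgm1 (8.52). Prom1-negative prostate replicate 1 was low for Irf1 (8.84), Prom1-negative intestine replicate 2 was high for Oas2 (4.86), and uterine adenocarcinoma replicate 6 was high for Oasl1 (8.43).

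The Prom1-positive minus Prom1-negative difference varied between organs for 15 members (55.6%), where 21.2% of all genes did so. The adjusted p was 6.95e-05 for Trim30a, 0.000145 for Psmb9 and 0.000195 for Psmb8 (limma interaction terms). The tumour minus sorted difference varied between organs for 23 members (85.2%), where 77.9% of all genes did so. These shares were near each other, so the count is not a result about the members. The adjusted p of the limma interaction terms was 2.25e-08 for Trim30a, 5e-08 for Gbp2 and 1.51e-06 for Gbp3.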

How the results depend on the processing

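Counts of members called that moved by over 1.5 times are given by setting. With quantile normalization repeated, stomach sorting gave 1 call and liver tumours 14. With the upper quartile as a covariate, stomach sorting gave 2, stomach tumours 5 (1 higher, 4 lower), bronchial adenomas 4 and uterine adenocarcinomas among types 5. With the leukocyte mean as a covariate, the organ by sort interaction gave 4, liver sorting 1, stomach sorting 2, uterus sorting 2, lung tumours 12, stomach tumours 5 (all lower), hepatocellular carcinomas 17 (all higher), bronchial adenomas 17, skin carcinomas 7 and lymphomas 6. Without arrays of low upper quartile, uterus sorting gave 9 and stomach tumours 4. With all 117 samples fitted, the mean over organs gave 1 and prostate sorting 2, and with uterine samples alone uterus sorting gave 13. With the Prom1-negative group alone as the normal level, liver tumours gave 15 (1 higher, 14 lower), stomach tumours 5 (all higher) and uterine tumours 1 (higher). With the Prom1-positive group alone prostate tumours gave 7 (1 higher, 6 lower) and lung tumours 12 (all lower). With sample codes 100 to 280 only, liver tumours gave 5, and stomach, uterus, the mean over organs and its interaction gave no value. The cause of these shifts was not tested.

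The replicate block gave 9 calls for the organ by sort interaction, 3 for prostate sorting and 14 for the F test over 6 organs, and a block of consecutive sample codes gave 3 for prostate sorting.

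Directions that reversed were Xaf1 with its probe sets averaged (0.77 in liver tumours, -0.67 in prostatic and -0.39 in uterine tumours among types; its other probe set correlated with it at -0.495), Gbp2 (-0.066) and Gbp3 (-0.019) in stomach tumours with the leukocyte mean, Dhx58 in uterine tumours (0.16) against negative cells, and Gbp2 in liver tumours (0.23) against positive cells. Leaving out 1 sample gave Oas2 in lung between -0.073 and 1.70, and counts of 2 to 5 for the mean over organs, 0 to 7 in prostate, 0 to 3 in stomach and 1 to 9 in uterus. All other counts stayed within 1.5 times in each alternative run. Signal near background limits Oas3, Oas2 and Mx2 most, which exceeded the array median on 4, 71 and 80 of 117 arrays. It also limits other members in single groups. Oasl2 exceeded the median on 1 of 4 Prom1-positive liver and 0 of 4 Prom1-negative stomach arrays, and Ifit2 on 0 of 3 Prom1-positive stomach arrays. Stat2 did so on 1 of 3 Prom1-negative uterus arrays and Iigp1 on 1 of 5 Prom1-negative intestine arrays.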
